A study of Homo sapiens with 16 samples.

Results

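The 6 genes BTG2, GDF15, E2F7, PLK2, PLK3 and SFN are targets of p53 that restrain cell growth, apart from the cell cycle inhibitor gene CDKN1A. They were described by every p53 and CTCF peak within 50 kb of their gene bodies, taken from the GENCODE annotation of hg19. By this rule 25 of 5699 p53 peaks and 85 of 71164 CTCF peaks in the series belonged to them. The p53 peaks merged into 9 of 2980 p53 sites, and the CTCF peaks into 31 of 29064 CTCF sites, where a site joins the overlapping peaks of the 4 libraries of a factor. All 6 genes had at least 1 p53 site, against 18.9% of 20163 protein-coding genes.

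Chromatin immunoprecipitation followed by sequencing (ChIP-seq) had been carried out in the MCF10A line, which derives from human breast epithelium and does not form tumours, and in G12V cells. G12V cells are MCF10A cells that received oncogenic HRAS (G12V) by lentiviral transduction, from a vector carrying hygromycin resistance, together with a GFP vector. They were then selected with hygromycin, and the control is the parental line. All p53 samples, of both cell types, had been treated with Nutlin before fixation and precipitated with the DO-1 antibody, so no p53 library shows untreated cells. The study describes no Nutlin treatment for the CTCF samples. Each factor had 2 biological replicates per cell type, and 8 further samples were inputs, used by the authors for peak calling.

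p53 is a transcription factor that accumulates when its inhibitor MDM2 is blocked, which is what Nutlin does. It binds DNA as a tetramer on an element made of 2 similar 10-base units, called decamers here, and turns on genes that halt the cell cycle, repair DNA or cause cell death. In mammary epithelium p53 limits the growth of cells that carry an active oncogene. CTCF, a DNA-binding protein with zinc fingers, marks insulators and borders of chromatin domains.

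The lists were unequal in length, which bears on every absence reported here. The p53 lists of MCF10A replicates 1 and 2 and of G12V replicates 1 and 2 held 1718, 885, 477 and 2619 peaks, and the CTCF lists held 11346, 20136, 12004 and 27678 in the same order. The calling depth, recovered from the values of the peaks, ranged from 9.26 to 23.9 M reads for p53 and from 10.7 to 13.5 M for CTCF, where M is 1e6. It is the depth after any scaling to the input at peak calling, so a library can hold more reads. In p53 G12V replicate 2 that scale was 0.721, in the other p53 libraries it was 1, and for CTCF it was not solved. Fragments at summits are given unscaled. Peaks were ranked within a list by −log10 q, with rank 1 the highest. The p53 G12V replicate 1 library was the shallowest and had the shortest list, and its peaks carry the word "old" in their names, which is not explained in the sources used here. That list also had the strictest cutoff. Its weakest peak had a −log10 p of 6.74 and its lowest −log10 q was 2.56. The other p53 lists reached down to between 4.79 and 5.53 for p and between 1.31 and 1.53 for q. Where a list lacks a site, no peak passed at the depth and cutoff of that list, which does not show that p53 was absent.

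Sites are named by the gene and by the distance of the summit from the transcription start site (TSS) of the canonical transcript in bp, negative upstream. For GDF15 the annotated gene body starts 11427 bp before that TSS because of a longer transcript, so distances from both starts differ. The following stretches of 100 bases, from the leading p53 site of each gene and the other GDF15 site of all 4 libraries, are shown because they hold the p53 elements nearest to the motif, at their centre and with the decamers in capitals. They are GRCh37 sequence, 5′ to 3′ on the strand of the gene.
PLK2 −2189, chr5:57758061-57758160, minus strand: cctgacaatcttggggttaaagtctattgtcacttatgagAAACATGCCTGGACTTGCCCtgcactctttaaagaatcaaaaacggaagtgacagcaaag
GDF15 −12190, chr19:18484717-18484816, plus strand: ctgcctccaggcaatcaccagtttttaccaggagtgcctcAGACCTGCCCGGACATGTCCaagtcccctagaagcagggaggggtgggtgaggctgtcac
GDF15 −21136, chr19:18475757-18475856, plus strand: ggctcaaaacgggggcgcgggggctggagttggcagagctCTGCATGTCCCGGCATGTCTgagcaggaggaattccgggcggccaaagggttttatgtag
BTG2 +1172, chr1:203275771-203275870, plus strand: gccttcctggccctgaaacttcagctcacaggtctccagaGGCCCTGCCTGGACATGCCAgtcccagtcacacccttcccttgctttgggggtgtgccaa
E2F7 −505, chr12:77459807-77459906, minus strand: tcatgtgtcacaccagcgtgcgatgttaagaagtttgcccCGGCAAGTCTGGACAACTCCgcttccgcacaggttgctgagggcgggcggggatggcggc
SFN −1758, chr1:27187781-27187880, plus strand: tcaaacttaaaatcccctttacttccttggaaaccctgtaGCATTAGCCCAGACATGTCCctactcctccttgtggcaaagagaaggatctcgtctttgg
PLK3 −439, chr1:45265559-45265658, plus strand: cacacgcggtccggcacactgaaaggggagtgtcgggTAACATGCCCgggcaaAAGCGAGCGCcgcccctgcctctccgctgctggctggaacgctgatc
The element under the GDF15 +54 peak lies in exon 1, and its 20 bases alone are shown.
GDF15 +54, chr19:18496996-18497015, plus strand: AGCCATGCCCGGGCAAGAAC

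The PLK2 element matched both decamers of the p53 motif without a mismatch, and its centre lay 9 bp from the summit of the strongest peak. The elements at GDF15 −12190, GDF15 −21136, GDF15 +54 and BTG2 +1172 had 1, 3, 3 and 3 mismatches outside the core, and lay 11, 25, 16 and 2 bp from the summit. The core is the pattern NNNCNNGNNN of each decamer, whose C and G had to be intact. By this rule, with at most 3 mismatches and adjacent decamers within 150 bp around the summit, 5 of the 9 sites had a p53 motif, against 70.4% of all 2980 p53 sites and 0.67% of windows 2 kb beside the summits. Of the 4 sites called in all libraries 3 had it, against 88.9% of all such sites. A decamer is its own reverse complement in this motif, so both strands were covered.

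The remaining 4 sites did not meet that rule. The E2F7 element had 2 mismatches, of which 1 fell on a core base, and lay 3 bp from the summit. The SFN element also had 2 mismatches with 1 on a core base, and its downstream decamer had none. It lay 51 bp from the summit of the MCF10A replicate 2 peak. The G12V replicate 2 summit was 77 bp from that summit and farther from the element. Allowing a core mismatch, a choice made after the sequences were seen, gave 7 of 9 sites, with 79.7% of all p53 sites and 3.49% of the windows beside them. At PLK3 the decamers fit only with a spacer of 6 bp and 3 mismatches, 1 bp from the summit, and no adjacent pair was found even with a core mismatch. With spacers of 1 to 13 bp allowed, 80.8% of all p53 sites had a motif. At BTG2 +60, in the untranslated part of exon 1, none of these searches found an element. The AP-1 motif, TGAGTCA or TGACTCA, was in none of the 9 windows of 150 bp, against 6.71% of all p53 sites and 2.75% of windows beside them. Over the whole width of the merged sites, GDF15 −12190 held 2 such motifs outside its window and no other site held any. The share over all whole sites was not counted. A match here describes letters and does not show which protein was bound.

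Of the 9 sites, 4 were called in all 4 p53 libraries, against 11.1% of all p53 sites. They lay at PLK2, at PLK3 and, with 2 sites, at GDF15, so 3 of the 6 genes had such a site, against 2.4% of protein-coding genes. E2F7 −505 was called in both G12V libraries and neither MCF10A library, a pattern seen at 1.41% of all p53 sites, and none of the 9 sites had the opposite pattern, seen at 2.18%. BTG2 +1172 was called in 3 libraries, SFN −1758 in 2, and BTG2 +60 and GDF15 +54 in 1 each.

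**Figure D1:**
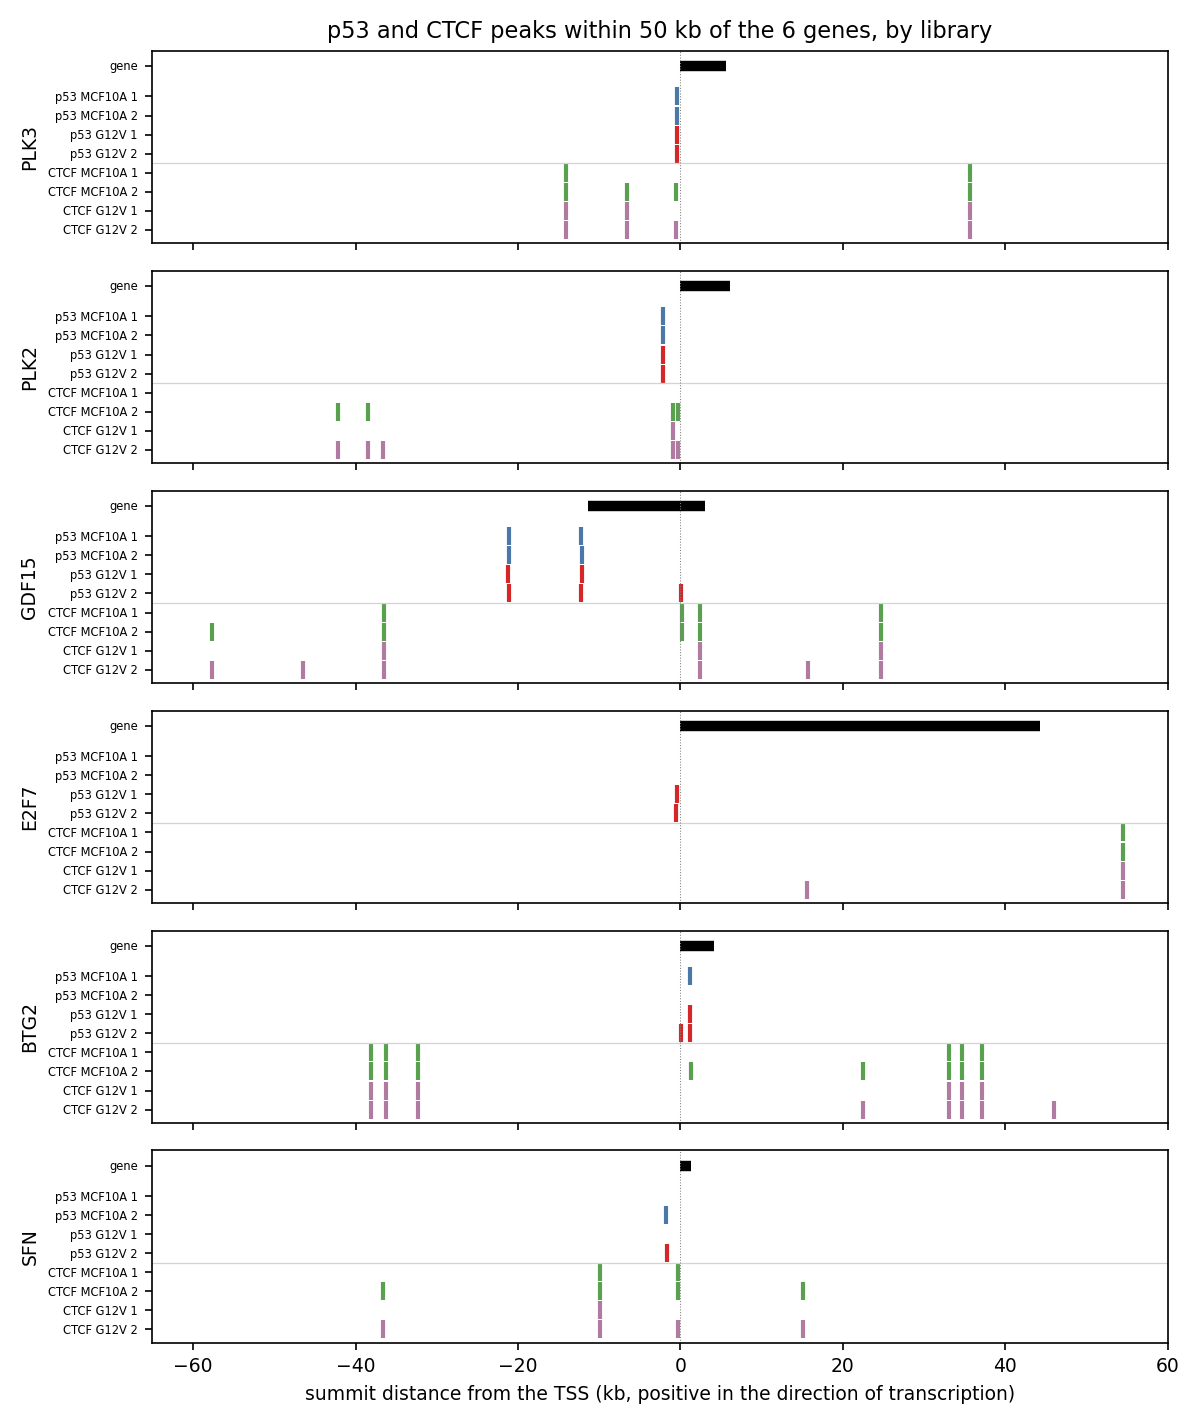
Positions of p53 and CTCF peaks within 50 kb of the 6 genes. The horizontal axis is the distance of a peak summit from the TSS in kb, each coloured tick is a peak in the library named on its row, and the black bar is the annotated gene body. PLK3, PLK2 and GDF15 have p53 ticks in all 4 p53 rows, whereas E2F7 has them in the G12V rows only.

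PLK3, a polo-like kinase that responds to stress, had its p53 site 439 bp before the TSS, at chr1:45265295-45266012. The peak ranked 306 and 284 in MCF10A replicates 1 and 2, and 26 and 64 in G12V replicates 1 and 2. Its fold enrichment over local background was 17.6 and 11.1 in MCF10A against 23.5 and 40.0 in G12V. Both G12V libraries were above both MCF10A libraries on either measure, and no other site of the 6 genes that was called in all 4 libraries was separated in both ways. The mean log2 rank was 8.20 ± 0.08 in MCF10A and 5.35 ± 0.92 in G12V (SD, n = 2), a difference of −2.85. The exact two-sided permutation test gave p = 0.333, the smallest possible for 2 against 2 libraries, and 0.576 after Benjamini-Hochberg adjustment over all 332 sites called in all 4 libraries. Ordered by shift toward G12V, PLK3 held place 13 of 332.

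To take the unequal enrichment of the libraries into account, each fold was also divided by the median fold of the same library at the 332 sites, which was 17.9 and 11.1 in MCF10A against 9.41 and 24.9 in G12V. The PLK3 peak was at 0.981 and 1.00 times this median in MCF10A and at 2.50 and 1.61 times in G12V. It was thus close to the median of the shared sites in the parental line and above it in both G12V libraries. The share of the 332 sites with such a separation on this scale was not counted. The summits of the 4 peaks fell within 21 bp.

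PLK2, a related kinase that is likewise induced by p53, had its site at chr5:57757839-57758333, 2189 bp before the TSS. The peak ranked 74 and 181 in MCF10A against 98 and 79 in G12V. Its folds were 28.4 and 9.56 in MCF10A, and in G12V 12.7 and 31.5. The groups overlapped on rank and on fold. The log2 rank difference was −0.40 (exact permutation p = 1), and it changed sign, to 0.25, without MCF10A replicate 2. Relative to the library median the PLK2 folds were 1.59 and 0.860 in MCF10A against 1.34 and 1.27 in G12V. Set against PLK2 within each library, the PLK3 peak had the higher rank number in MCF10A, by 2.05 and 0.65 on the log2 scale, and the lower one in G12V, by −1.91 and −0.30. By fold, however, PLK3 was above PLK2 in MCF10A replicate 2 as well as in both G12V libraries, at 11.1 against 9.56 in the former. This pair was compared after its values had been seen, and no test was made.

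GDF15 encodes a secreted stress cytokine of the TGF-β superfamily and had the most p53 sites of the 6 genes, with 3. The site at chr19:18484404-18485561 lay 12190 bp before the canonical TSS and at the edge of the annotated gene body, and that at chr19:18475214-18476047 lay 21136 bp before the TSS. GDF15 −12190 ranked 271 and 309 in MCF10A against 81 and 109 in G12V, with folds of 16.7 and 10.7 against 14.1 and 28.7. GDF15 −21136 ranked 291 and 343 in MCF10A against 55 and 121 in G12V, with folds of 16.6 and 7.49 against 16.4 and 29.6. At both sites the ranks of the cell types did not overlap, while the folds did. As a percent of the list from its top, GDF15 −12190 was at 15.8 and 34.9 in MCF10A against 16.98 and 4.16 in G12V, where the cell types overlapped. GDF15 −21136 was at 16.9 and 38.8 against 11.5 and 4.62, without overlap.

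The log2 rank differences were −1.62 at GDF15 −12190 and −1.95 at GDF15 −21136, places 59 and 43 of 332, each with an exact permutation p of 0.333 and an adjusted p of 0.576. Relative to the library median the folds were 0.934 and 0.965 at GDF15 −12190 in MCF10A and 1.50 and 1.15 in G12V. At GDF15 −21136 they were 0.926 and 0.674 in MCF10A against 1.74 and 1.19 in G12V. On this scale both G12V libraries lay above both MCF10A libraries at each site. How many of the 332 sites were separated on this scale was not counted. The nearest canonical TSS of a protein-coding gene to both sites was that of GDF15 itself.

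The last GDF15 site, at chr19:18496857-18497201, covered the canonical TSS and the start of exon 1, with its summit in the coding part. It was called in G12V replicate 2 alone, at rank 833 of 2619, with a fold of 12.2 and 46 fragments at the summit. A call in MCF10A replicates 1 and 2 and in G12V replicate 1 would have needed folds of 4.32, 4.62 and 5.29. The fold needed is the lowest that passes the weakest p in a list, at the highest background, relative to the genome, measured at that site in the libraries that called it. The background in the libraries without a peak is not known. At the genome-wide background these 3 libraries would have needed 4.16, 4.34 and 5.11. An equal fold in those 3 libraries would therefore have been called. Relative to the library median, however, the called peak was at 0.491, and G12V replicate 1 would have needed 0.562, so a site of that relative strength could have been missed there. The MCF10A replicates would have needed 0.241 and 0.415.

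**Figure D2:**
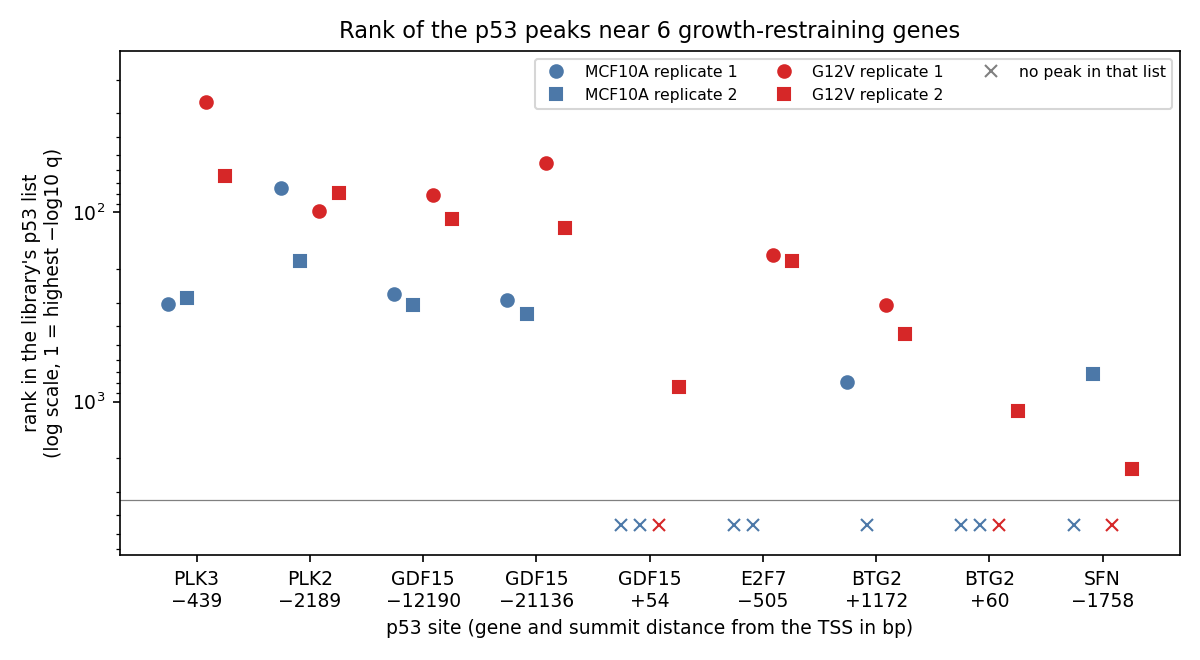
Rank of each p53 peak within the list of its library, on an inverted log axis, for the 9 p53 sites of the 6 genes. Blue marks MCF10A and red G12V, circles are replicate 1 and squares replicate 2, and crosses below the line mark libraries without a peak. The G12V points of PLK3, GDF15 −12190 and GDF15 −21136 lie above the MCF10A points, while those of PLK2 overlap.

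Over the 4 sites of all libraries, both G12V libraries outranked both MCF10A libraries at 3, against 36.4% of the 332 sites, and at none was the reverse true, against 21.4%. By place as a percent of the list length, both G12V libraries were nearer the top at 2 of the 4, PLK3 −439 and GDF15 −21136, against 13.3% of the 332 sites. The median log2 rank difference was −1.79 over the 4 sites and −0.29 over the 332, and the median log2 fold difference was 0.79 against 0.13. In the exact permutation tests, run separately at each of the 332 sites, none had a p under 0.05 before or after adjustment, which 2 against 2 libraries cannot reach. Both GDF15 sites belong to 1 gene and are not independent.

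**Figure D3:**
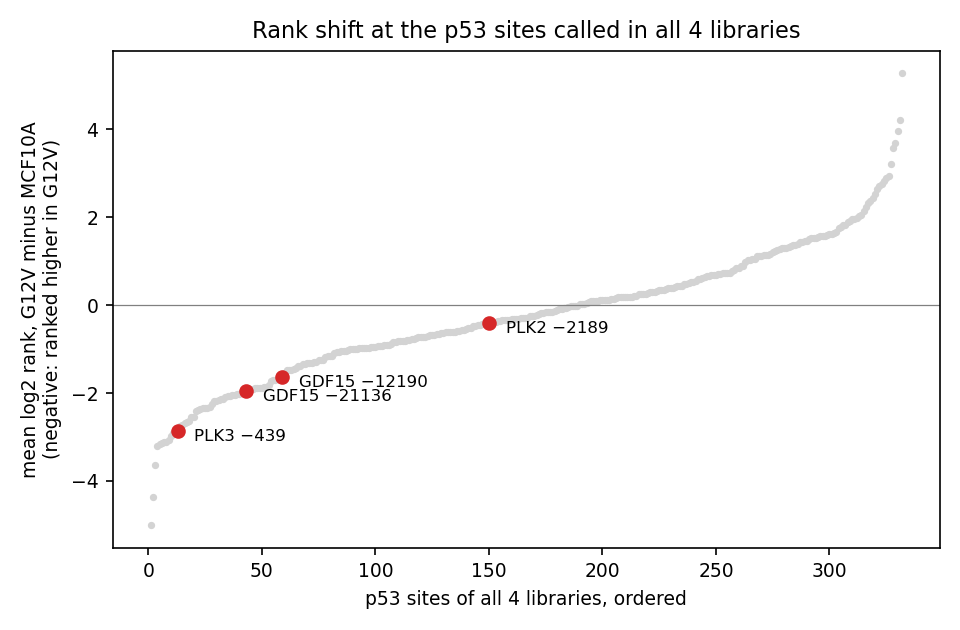
Difference in mean log2 rank between G12V and MCF10A libraries for the 332 p53 sites called in all 4 libraries, in ascending order. Each grey point is a site, red points are the 4 sites of PLK3, GDF15 and PLK2, and negative values mean a higher place in the G12V lists. PLK3 is at −2.85 and PLK2, at −0.40, is near the median of −0.29.

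E2F7 is an atypical member of the E2F family that represses genes needed for DNA replication and cell division. Its p53 site, at chr12:77459423-77460121, lay 505 bp before the TSS and was absent from both MCF10A lists. In G12V replicates 1 and 2 it ranked 168 of 477 and 181 of 2619, with folds of 11.2 and 27.7 and with 21 and 114 fragments at the summit. A call in MCF10A replicates 1 and 2 would have needed folds of 4.07 and 4.38, or 9 and 8 fragments, so a fold as high as in either G12V library would have been seen. Relative to the median of the 332 sites the folds were 1.19 and 1.12 in G12V, and the folds needed in MCF10A were 0.227 and 0.394 of that median. By mean log2 rank it held place 2 of the 42 sites with this pattern. Presence in 2 against 2 lists cannot reach an exact permutation p below 0.333, and no fold is given against the lists without a peak.

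BTG2, an antiproliferative protein that speeds the removal of poly(A) tails from mRNA, had its leading site in intron 1, at chr1:203275559-203275994. It ranked 792 in MCF10A replicate 1 and 308 and 438 in G12V replicates 1 and 2, with folds of 8.47, 5.95 and 15.0. It was not called in MCF10A replicate 2. A fold of 3.78 would have been needed in that library at the highest background measured at this site elsewhere, and 4.34 at the genome-wide background. Relative to the library median the folds were 0.473, 0.632 and 0.602, so in every library that called it this site had a lower fold than the 4 sites called in all libraries. The other BTG2 site covered the TSS, at chr1:203274512-203274926. It was called in G12V replicate 2 alone, at rank 1116 of 2619, with a fold of 6.33, 60 fragments at the summit and the highest local background of the sites described, 3.76 times the genome-wide rate.

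SFN encodes 14-3-3σ, an epithelial protein that holds cells before mitosis by keeping cyclin B and its kinase out of the nucleus. Its p53 site, at chr1:27187794-27188041, lay 1758 bp before the TSS and was the weakest leading site of the 6 genes. It ranked 718 of 885 in MCF10A replicate 2 and 2263 of 2619 in G12V replicate 2, with folds of 6.39 and 5.62 and with 13 and 22 fragments at the summit. The folds needed were 4.16 in MCF10A replicate 1 and 5.10 in G12V replicate 1, or 0.232 and 0.542 of the library median, while the peaks called were at 0.575 and 0.226. Both cell types thus had the site in 1 of 2 libraries, and no difference between them was detectable.

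**Figure D4:**
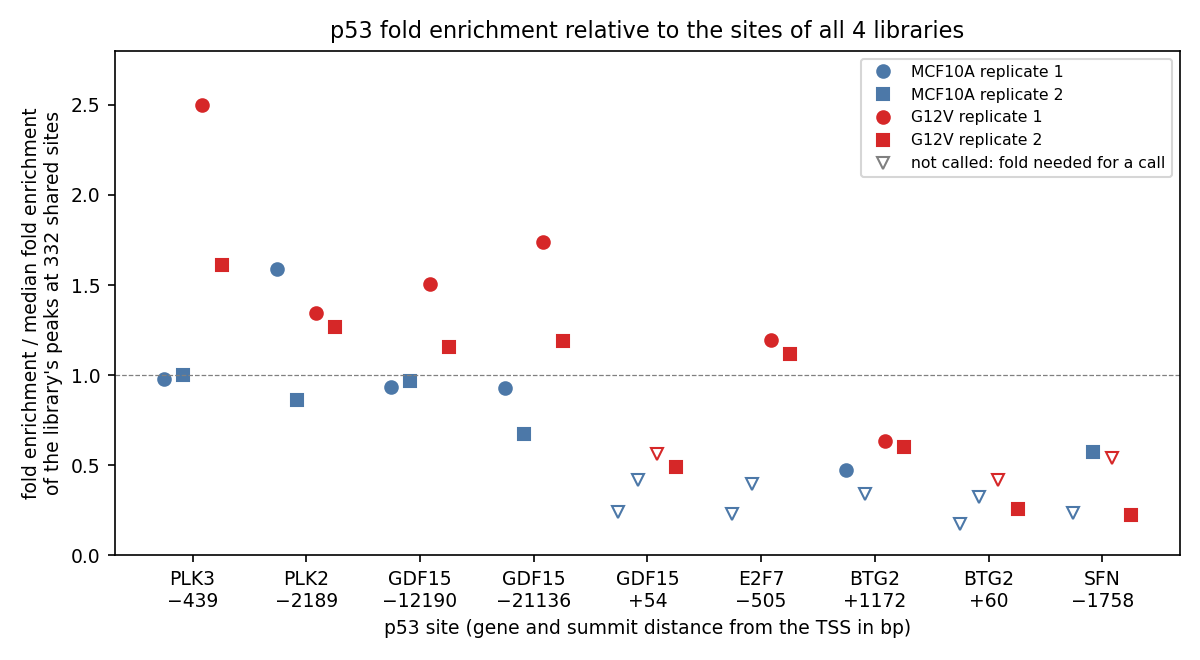
Fold enrichment of each p53 peak divided by the median fold of the same library at the 332 sites of all 4 libraries (dashed line at 1). Filled symbols are called peaks, in blue for MCF10A and red for G12V, and open triangles give the fold that a call would have needed where a library had no peak. E2F7 lies at 1.19 and 1.12 in G12V, above the open MCF10A triangles at 0.227 and 0.394.

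Among the 36 pairs of a site and a library, 11 lacked a call, and in all 11 the fold needed was below the lowest fold with which another library called that site. With folds taken relative to the library median this held in 6 pairs only. In the other 5, namely BTG2 +60 in MCF10A replicate 2 and G12V replicate 1, GDF15 +54 in G12V replicate 1, and SFN −1758 in MCF10A replicate 1 and G12V replicate 1, a site of the lowest relative strength called could have been missed. Across the 11 pairs the folds needed ranged from 3.16 to 5.29. By rank, the order of the sites within a library was not the same in the cell types. PLK2 had the best rank among the called sites in both MCF10A libraries and PLK3 in both G12V libraries. By fold, PLK3 was ahead of PLK2 in MCF10A replicate 2 as well, at 11.1 against 9.56.

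The MCF10A libraries held 5 and 5 p53 peaks near the 6 genes, and the G12V libraries 6 and 9. The mean difference was 2.5 (exact two-sided permutation p = 0.333), and without G12V replicate 1 it came to 4, without G12V replicate 2 to 1. When each list was cut to its strongest 477 peaks, 4 and 4 peaks remained in MCF10A and 6 and 6 in G12V. The additional G12V peaks in these equal lists were those of E2F7 −505 and BTG2 +1172.

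In a list of 10 other p53 targets that restrain growth, 8 had a p53 site within 50 kb and 4 had a site of all 4 libraries, against the 18.9% and 2.4% of protein-coding genes given above. These 4 were CDKN1A, GADD45A, CCNG1 and ZMAT3. The best site of CDKN1A ranked 13 and 27 in MCF10A and 11 and 3 in G12V, higher in each library than any site of the 6 genes. The site of GADD45A, a stress protein that binds PCNA, ranked 450 and 470 in MCF10A and 144 and 87 in G12V. That of CCNG1, which encodes cyclin G1, ranked 669 and 720 against 373 and 335, and that of ZMAT3, which encodes an RNA-binding protein, 146 and 217 against 126 and 136. These ranks are out of 1718 and 885 peaks in MCF10A and out of 477 and 2619 in G12V. Places as a percent of the list are not given for these 4 genes, so lower rank numbers in G12V need not mean a higher place in the list. Of 23 paralogues of the 6 genes in the BTG, GDF, E2F, PLK and 14-3-3 families, 3 had a p53 site and 1, BTG4, had a site of all 4 libraries, at ranks 121, 141, 311 and 768 in the order above. Both paralogue counts are near the shares of all protein-coding genes.

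CTCF surrounded the genes unevenly. Of the 31 CTCF sites near them, 13 were called in all 4 CTCF libraries (41.9%, against 27.5% of all 29064 CTCF sites), and 8 were called in replicates 2 of both cell types alone, which had the longest lists. Of the 6 genes, 5 had a CTCF site of all 4 libraries within 50 kb, against 51.6% of protein-coding genes. BTG2 had the most, with 6 of its 9 sites, 3 on either side of the gene. The pair nearest to it lay at −32281 and +33103 bp from the TSS, and ranked 96, 357, 435 and 11 and 155, 138, 157 and 253 in the order of libraries given above. The nearest of these flanking sites were 33453 and 31931 bp from the BTG2 +1172 summit and enclosed no other protein-coding TSS.

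GDF15 −12190 was 24256 and 14634 bp from its flanking CTCF sites of all 4 libraries, the latter in coding exon 2 of GDF15, and GDF15 was the only protein-coding TSS between them. At PLK3 the distances were 13646 and 36075 bp, with BEST4, BTBD19 and DYNLT4 also enclosed, and at SFN 8141 and 105667 bp with 5 further genes. E2F7 had 1 such site, beyond its 3′ end and 54971 bp from the p53 summit, and the next on the promoter side was 859659 bp away. PLK2 had none within 50 kb. Its 5 CTCF sites were called in at most 3 libraries, none of them MCF10A replicate 1, and the flanking sites of all libraries were 1890395 bp apart.

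The CTCF peaks near the 6 genes numbered 15 and 26 in MCF10A and 15 and 29 in G12V, a difference of 1.5 (exact permutation p = 1). Leaving out G12V replicate 2 turned it to −5.5 and MCF10A replicate 1 to −4, while leaving out MCF10A replicate 2 gave 7 and G12V replicate 1 gave 8.5. The lists cut to 11346 peaks left 15 and 18 in MCF10A against 15 and 16 in G12V. None of the 31 CTCF sites near the genes was called in both G12V libraries and neither MCF10A library, a pattern held by 3.33% of all CTCF sites, so a count of 0 is near that share. The opposite pattern, held by 0.261% of all CTCF sites, occurred at 1 of the 31, 143 bp after the GDF15 TSS, with ranks 11165 of 11346 and 12091 of 20136 and folds of 4.22 and 8.14.

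Of the 9 p53 sites, 3 overlapped a CTCF peak of any library, against 3.09% of all p53 sites. The weak CTCF site at the GDF15 TSS, called in MCF10A alone, overlapped GDF15 +54, the p53 peak called in G12V replicate 2 alone. PLK3 −439 overlapped a CTCF site called in replicates 2 of both cell types, at rank 3149 in MCF10A and 19044 in G12V. BTG2 +1172 overlapped a CTCF peak of MCF10A replicate 2 at rank 18136. None of the 3 overlapping CTCF sites was called in all 4 libraries. Both factors were measured in separate samples, and Nutlin treatment is described for those of p53 only.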

How the data were processed

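ChIP-seq for p53 and CTCF was analysed in MCF10A and G12V cells, with groups and replicate numbers from the sample titles. The authors aligned reads to hg19 with Bowtie, kept unique reads, and called peaks with MACS at default settings. Each deposited list was called on 1 library, while the study combined replicates. The deposited lists give a score per peak (not used for ranking), a fold enrichment, and −log10 values of p and q. The fold is the ratio of pileup at the summit to its local background, with 1 added to each, so it is below the plain ratio. No read totals were used from elsewhere: fold and −log10 p were solved together for summit fragments and background, and the narrowest peak gave the fragment length, from which the calling depth followed, with 2.7 Gb taken as mappable. In a self-test on simulated peaks 100% of fragment counts were recovered.

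Peaks overlapping by 1 bp were merged into sites. Genes came from GENCODE release 44 lifted to GRCh37, with the canonical transcript giving the TSS. Sequence came from GRCh37, and no peak ended past its chromosomes. All 6 genes are named. A leading site is the one with the best mean place over the 4 lists, and of the other p53 targets and paralogues those with a site of all 4 libraries are named. These members and lists were chosen with earlier results of these data known. Counts, log2 ranks and folds were compared over libraries with exact two-sided permutation tests, and p-values were adjusted over 332 sites. The 2 replicates per group limit the tests, and p-values measure the spread between libraries only. Alternatives were the window, a −log10 q of 5, lists of equal length, leaving out each library, a replicate block, summit distance instead of overlap, other rank scales and motif rules. Python 3.11.15, numpy 2.4.6, scipy 1.17.1 and matplotlib 3.10.9 were used.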

Additional observations from a re-analysis of the deposited data

How the results depend on the processing

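The counts of 4 p53 sites and 3 genes called in all 4 libraries were the same under a window of 10 or 100 kb, a −log10 q of at least 5, lists of equal length and summits within 150 bp, and ranged from 4 to 5 sites and from 3 to 4 genes when 1 library was left out. The count of sites specific for 1 cell type, 1, was 2 in lists of equal length and ranged from 1 to 3 with 1 library left out (2 without MCF10A replicate 1, 3 without G12V replicate 1). The p53 peak difference of 2.5 ranged from 1 to 4 with 1 library left out. The CTCF peak difference of 1.5 was −0.5 within 10 kb, 0 at a −log10 q of at least 5 and −1 in lists of equal length, and ranged from −5.5 to 8.5 with 1 library left out. The median log2 rank difference of −1.79 ranged from −2.18 to −1.40 with 1 library left out. It kept its direction as a percentile (17.3), as log2 fold (0.79) and, chosen after seeing the data, as log2 summit pileup over the genome-wide background (0.72). At PLK2 the difference ranged from −1.04 to 0.25. With the replicate block, whose numbers are not known to pair samples, the differences were 2.5, 1.5 and −1.79 (exact sign-flip p = 0.5, 1 and 0.5, the smallest possible being 0.5). The p53 motif count of 5 fell to 2 with at most 2 mismatches, was 5 within 300 bp and 6 with a spacer, and was 7 with a core mismatch allowed, a choice made after seeing the data. The calling depth and the cutoff of each list limit every absence. In G12V replicate 1, the p53 list with the strictest cutoff, no fold below 5.11 could be called at the genome-wide background.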
